A study of Mus musculus with 2 samples.

Results

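The genes examined here encode calmodulin, its kinase and the proteins that fill and empty intracellular calcium stores. They were Calm2, Calm3, Camk2b, Camk2n1, Atp2a2, Atp2a3, Itpr1 and Ryr2, which made 8 of the 27998 features in the count tables. They were matched by gene symbol, and they were chosen with earlier results of these data known. Calmodulin is a small protein that binds calcium and then activates other enzymes, among them calcium/calmodulin-dependent protein kinase II and the phosphatase calcineurin. The SERCA pumps carry calcium from the cytosol into the endoplasmic reticulum, and inositol trisphosphate receptors and ryanodine receptors release it again. In β cells a rise in cytosolic calcium triggers insulin secretion, and the stores shape the size and rhythm of that rise.

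Islet cells came from 8-week-old C57BL/6N mice fed standard chow, either WT or homozygous for a germline deletion of the ghrelin gene (GKO). Islets of 4 mice were pooled per genotype, viable cells were sorted, and 1 library of transcript 3′ ends was made from each pool. Each value below is a sum of UMIs (unique molecular identifiers, each standing for 1 captured transcript) over a class of cell barcodes in 1 library. With 1 library per genotype there was no replicate of either genotype, so no test between WT and GKO was made, and every interval is a 95% interval that covers counting error only.

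The WT library held 7792 barcodes and 158067110 UMIs, and the GKO library held 7289 barcodes and 103511757 UMIs. A floor of 500 genes per barcode and a ceiling of 10% on mitochondrial UMIs left 7100 WT barcodes, with a median of 15412 UMIs, and 6346 GKO barcodes, with a median of 11404 UMIs. The libraries shared 18 barcode sequences. Ghrl, the deleted gene, had 43634 UMIs in WT and 280 UMIs in GKO. Barcodes were classed by the hormone with most UMIs among Ins1 and Ins2 summed, Gcg, Sst and Ppy, if it held at least 10% of the barcode's UMIs. There were 2265 WT and 872 GKO insulin-led barcodes, 1048 and 1397 glucagon-led, 1414 and 1003 somatostatin-led, 717 and 669 pancreatic polypeptide-led, and 1656 and 2405 with no leading hormone. Of the last, 93 WT and 89 GKO barcodes had a hormone just under 10%, and endocrine cells were not excluded from that class. All 7 β cell markers were highest in the insulin-led class among the hormone-led classes in both libraries, as were 4 of 6 α cell markers in the glucagon-led class and 3 of 5 δ cell markers in the somatostatin-led class. Of 4 γ cell markers, 1 in each library was highest in the pancreatic polypeptide-led class, so that class is named here by its hormone. In WT 1 other γ cell marker had no UMI in any hormone-led class.

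Levels are UMIs in every 1000000 UMIs outside the 5 hormone genes (CPM), because the hormones alone made 61.3% of the UMIs of WT insulin-led barcodes and 59.2% of those in GKO. A level of one gene is compared across classes and libraries, but not with the level of another gene, since transcripts differ in length and in how well their 3′ ends are captured.

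The calcium pump genes had the widest range over hormone-led classes among these genes on that scale, while with the hormones in the total Itpr1 did. Atp2a3 encodes SERCA3 and lies at chr11:72961169-72993044 on the plus strand of GRCm38. Ryr2, the ryanodine receptor gene at chr13:11553102-12106945 on the minus strand, was the only one that could hardly be seen at all. Their promoters are shown for that reason, as the 250 bases before the transcription start in RefSeq (GRCm38.p6), read 5′ to 3′ on the gene's strand, with capitals for each GGGCGG (GC box) on either strand, where overlapping matches run together.
Atp2a3, chr11:72960919-72961168, plus strand: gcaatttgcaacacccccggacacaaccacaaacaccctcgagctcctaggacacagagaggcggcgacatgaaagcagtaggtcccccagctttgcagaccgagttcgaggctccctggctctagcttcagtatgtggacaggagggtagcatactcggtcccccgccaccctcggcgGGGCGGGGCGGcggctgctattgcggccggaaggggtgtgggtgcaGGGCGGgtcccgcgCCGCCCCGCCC
Ryr2, chr13:12106946-12107195, minus strand: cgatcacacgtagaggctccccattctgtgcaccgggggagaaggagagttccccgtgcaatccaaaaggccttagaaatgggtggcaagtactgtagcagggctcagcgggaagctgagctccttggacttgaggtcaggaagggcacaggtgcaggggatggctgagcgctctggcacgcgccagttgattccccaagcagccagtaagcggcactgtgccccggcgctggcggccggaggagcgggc
The Atp2a3 window held 5 matches to GGGCGG and the Ryr2 window held 0. Of 32851 promoters of the same length, 32.7% held at least 1 match and 1.93% held at least 5. GC made 66.8% of the Atp2a3 window and 63.2% of the Ryr2 window, against a median of 52.4% over all promoters. The TATA box motif TATAAA was on neither strand of these windows and in 12.4% of promoters. The motif TGACG, the core of the cyclic AMP response element, was also in neither window and in 17.8% of promoters, and the same was true of CACGTG (E box), found in 6.02%. Promoters of 4 of the 8 genes were in the reference table, the others being those of Calm3 and Camk2b.

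Atp2a2 encodes SERCA2, the pump found in most cells, and Atp2a3 encodes the SERCA3 isoform. Both were highest in insulin-led barcodes in each library. The level of Atp2a2 (chr5:122453513-122502225, minus strand) was 871 CPM (WT) and 872 CPM (GKO) in insulin-led barcodes. It was 226 and 222 CPM in glucagon-led, 254 and 235 CPM in somatostatin-led, 162 and 138 CPM in pancreatic polypeptide-led barcodes, and 123 and 128 CPM in those with no leading hormone. The insulin-led level was thus 3.86-fold (3.70 to 4.02) that of glucagon-led barcodes in WT and 3.93-fold (3.78 to 4.10) in GKO, and no other class came near it.

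The level of Atp2a3 was 242 CPM (WT) and 215 CPM (GKO) in insulin-led barcodes. In the other hormone-led classes it was 70.5 and 71.1 CPM (glucagon-led), 71.0 and 60.9 CPM (somatostatin-led) and 34.2 and 28.4 CPM (pancreatic polypeptide-led), and it was 20.2 and 16.4 CPM with no leading hormone. The insulin-led level was 3.44-fold (3.19 to 3.71) the glucagon-led one in WT and 3.02-fold (2.80 to 3.25) in GKO. Glucagon-led and somatostatin-led barcodes could not be separated for Atp2a3 in WT, where their log2 difference was −0.01 (−0.15 to 0.13).

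Atp2a2 and Atp2a3 were the only members whose level in one hormone-led class exceeded each of the other 3 by a log2 difference of at least 1 in both libraries, and that class was the insulin-led one. Of 12193 genes with enough UMIs, 2.95% did so for insulin-led, 0.968% for glucagon-led, 2.9% for somatostatin-led and 0.574% for pancreatic polypeptide-led barcodes, and no member did so for the last 3 classes. When the total included the hormones, which take most of the UMIs in insulin-led barcodes, the direction held but the size did not. The insulin-led to glucagon-led fold was then 2.08 in WT and 2.24 in GKO for Atp2a2, and 1.85 and 1.72 for Atp2a3. The smallest fold, over somatostatin-led barcodes, was 1.71 for Atp2a2 and 1.70 for Atp2a3 in WT, so neither gene reached the log2 difference of 1 over every class on that scale.

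Itpr1, which encodes the type 1 inositol trisphosphate receptor, was highest in glucagon-led and somatostatin-led barcodes and lower in insulin-led ones. The level of Itpr1 (chr6:108213096-108551109, plus strand) was 314 CPM (WT) and 343 CPM (GKO) in glucagon-led barcodes, and 322 and 337 CPM in somatostatin-led ones. It was 107 and 104 CPM in pancreatic polypeptide-led, 76.1 and 87.5 CPM in insulin-led barcodes, and 66.1 and 66.2 CPM with no leading hormone. Glucagon-led and somatostatin-led barcodes did not differ beyond counting error in either library, with log2 differences of −0.03 (−0.10 to 0.03) for WT and 0.03 (−0.04 to 0.09) for GKO. The glucagon-led level was 4.13-fold the insulin-led one in WT and 3.92-fold in GKO, so the class with the highest pump levels was the lowest of the hormone-led classes for this release channel. With the hormones in the total the hormone-led classes kept that split, and the insulin-led level became 0.130-fold (WT) and 0.145-fold (GKO) the glucagon-led one.

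Ryr2 encodes the ryanodine receptor best known from heart muscle. It had 15 UMIs in the kept WT barcodes and 15 in the kept GKO barcodes. None of the 2265 WT and 872 GKO insulin-led barcodes had a Ryr2 UMI. A count of 0 allows up to 0.0870 CPM in WT and 0.224 CPM in GKO at 3 UMIs per class, and up to 0.132% of WT and 0.344% of GKO insulin-led barcodes with a UMI. Glucagon-led barcodes had 1 UMI in each library, somatostatin-led barcodes 4 in WT and 3 in GKO, and pancreatic polypeptide-led barcodes 1 in WT and 0 in GKO. Barcodes with no leading hormone held most of them, 9 in WT and 11 in GKO. Ryr2 was therefore at or near the limit of detection in every hormone-led class at this depth. The assay reads transcript 3′ ends, and whether the annotation used for counting covers the Ryr2 3′ end used in islets was not tested, so a count of 0 limits the counted UMIs and not the transcript. No ratio between genotypes is given for Ryr2.

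**Figure D1:**
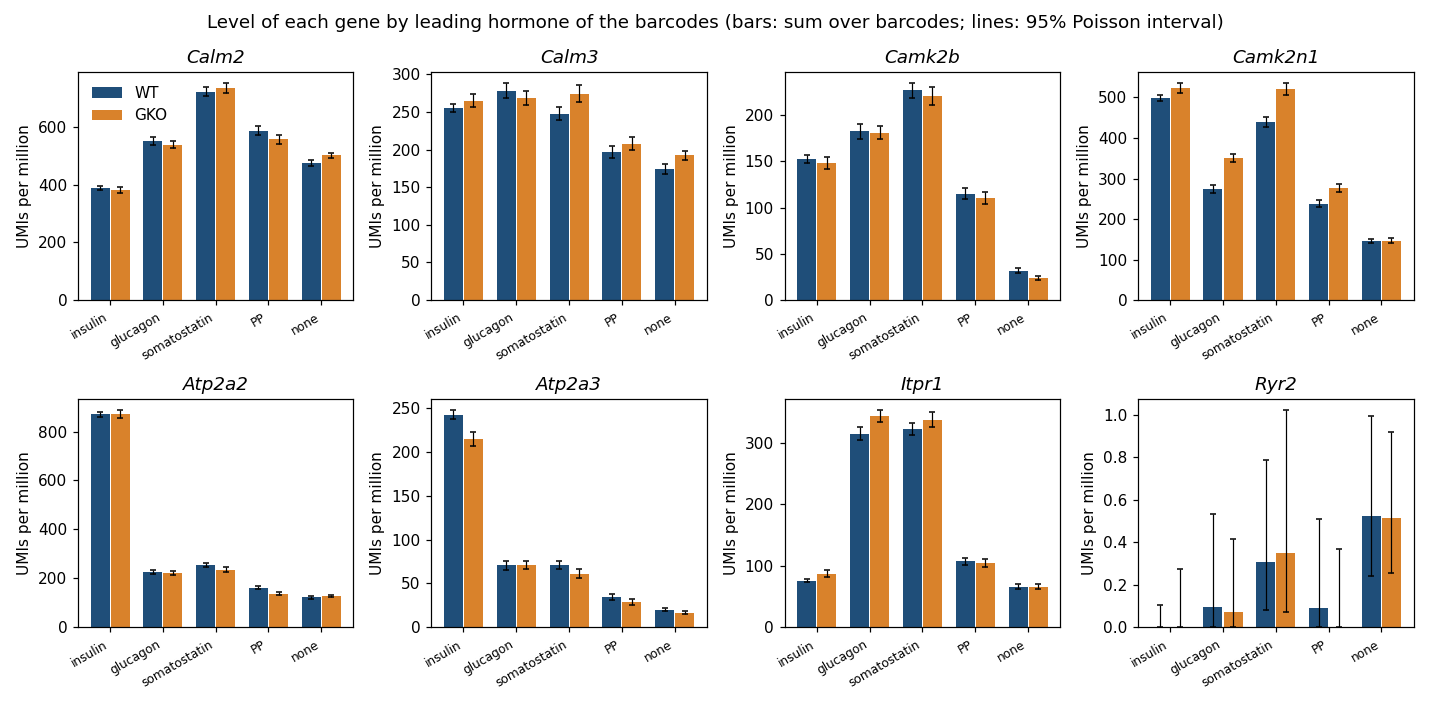
Level of each of the 8 genes, in CPM, in the 5 barcode classes of the WT (blue) and GKO (orange) libraries. Bars are sums over the barcodes of a class and black lines are exact Poisson 95% intervals. Atp2a2 and Atp2a3 peak in insulin-led barcodes, Itpr1 in glucagon-led and somatostatin-led ones, and Ryr2 stays near 0 on its own axis.

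Calm2 and Calm3 each encode calmodulin, and both were found in every class. The level of Calm2 (chr17:87433412-87446935, minus strand) was highest in somatostatin-led barcodes, at 722 CPM in WT and 734 CPM in GKO, and lowest in insulin-led ones, at 389 and 382 CPM. Between them lay pancreatic polypeptide-led (586 and 556 CPM), glucagon-led (551 and 538 CPM) and no-leading-hormone barcodes (474 and 501 CPM). The somatostatin-led level was 1.85-fold the insulin-led one in WT and 1.92-fold in GKO. Glucagon-led and pancreatic polypeptide-led barcodes were close neighbours, with log2 differences of −0.09 (−0.14 to −0.04) in WT and −0.05 (−0.10 to 0.00) in GKO, and on the scale with hormones in the total the sign of that difference turned.

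Calm3 was flatter. The level of Calm3 (chr7:16915379-16924114, minus strand) was 255 CPM (WT) and 265 CPM (GKO) in insulin-led barcodes, 278 and 268 CPM in glucagon-led, 247 and 274 CPM in somatostatin-led, 197 and 208 CPM in pancreatic polypeptide-led barcodes, and 174 and 192 CPM with no leading hormone. In GKO the first 3 classes could not be separated beyond counting error, and in WT the insulin-led and somatostatin-led classes could not. Pancreatic polypeptide-led barcodes were the lowest hormone-led class in both libraries. The glucagon-led level was 1.42-fold theirs in WT and 1.29-fold in GKO, and the somatostatin-led level was 1.26-fold and 1.32-fold. With the hormones in the total, insulin-led barcodes were the lowest of the 4 classes in both libraries, at 0.494-fold and 0.562-fold the glucagon-led level.

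Camk2b encodes the β chain of calcium/calmodulin-dependent protein kinase II, and Camk2n1 encodes a small inhibitor of that kinase. The level of Camk2b (chr11:5969644-6066362, minus strand) was 227 CPM (WT) and 220 CPM (GKO) in somatostatin-led barcodes, 182 and 181 CPM in glucagon-led, 152 and 148 CPM in insulin-led, and 115 and 110 CPM in pancreatic polypeptide-led ones. With no leading hormone it was 31.7 CPM (WT) and 23.7 CPM (GKO). All 4 hormone-led classes differed from each other beyond counting error in both libraries, and the somatostatin-led level was 7.16-fold that of barcodes with no leading hormone in WT and 9.30-fold in GKO. For comparison, the insulin-led level of Atp2a3 was 12-fold that of barcodes with no leading hormone in WT and 13.1-fold in GKO, and that of Atp2a2 was 7.11-fold and 6.81-fold. On the scale that includes the hormones, these folds were 4.76 (WT) and 5.45 (GKO) for Atp2a3 and 2.82 and 2.84 for Atp2a2. The somatostatin-led Camk2b fold was then 5.69 in WT and 7.40 in GKO. With the hormones in the total, the insulin-led level of Camk2b fell to 0.811-fold (WT) and 0.857-fold (GKO) that of pancreatic polypeptide-led barcodes, so those 2 classes changed places.

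Over the 10 sums of 5 classes in 2 libraries Camk2n1 and Camk2b had a Pearson r of 0.867 on the log2(CPM + 1) scale, given as a description, but they did not peak in the same class. The level of Camk2n1 (chr4:138454314-138460123, plus strand) was 499 CPM (WT) and 524 CPM (GKO) in insulin-led barcodes, 439 and 521 CPM in somatostatin-led, 275 and 350 CPM in glucagon-led, 238 and 276 CPM in pancreatic polypeptide-led barcodes, and 146 and 147 CPM with no leading hormone. Insulin-led exceeded somatostatin-led barcodes in WT by a log2 difference of 0.18 (0.14 to 0.23), but in GKO the difference was 0.01 (−0.05 to 0.06). With the hormones in the total, insulin-led barcodes had 0.567-fold (WT) and 0.527-fold (GKO) the somatostatin-led level and were no longer above glucagon-led ones (0.980-fold and 0.854-fold).

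The share of barcodes with a UMI was read after each barcode was thinned to 5000 UMIs outside the hormone genes, which left out shallower barcodes. Outside those genes the median WT barcode had 13559 UMIs in the insulin-led class and 8309 with no leading hormone. Those left out numbered 4 to 54 in each hormone-led class, 362 of 1656 WT and 552 of 2405 GKO barcodes with no leading hormone, and 88 of 364 WT endothelial-marker barcodes, so the shares are those of the deeper barcodes. Atp2a2 was then found in 94.9% (93.9 to 95.7) of WT and 95.4% (93.8 to 96.7) of GKO insulin-led barcodes, and in 65.5% and 65.2% of glucagon-led ones. Before thinning the insulin-led shares were 99.2% and 99.7%. Atp2a3 was found in 67.1% of WT and 63.9% of GKO insulin-led barcodes (91.3% and 90.5% unthinned) but in 17.1% and 13.5% of pancreatic polypeptide-led ones. Itpr1 was found in 27.3% and 26.5% of insulin-led barcodes (50.8% and 50.6% unthinned) against 76.9% and 78.1% of glucagon-led and 74.3% and 78.7% of somatostatin-led ones. At equal depth too, the insulin-led share was the highest of the hormone-led classes for both pumps and the lowest for Itpr1.

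Barcodes of nonendocrine cells also hold free RNA of the islet, and the shares in them, after thinning, differed between marker groups (defined further on). Those of the endothelial group had a median of 7362 UMIs in WT, and after thinning 1.09% (0.2247 to 3.14) of them had Atp2a3 and 3.26% (1.5 to 6.1) had Camk2b, against 52.7% of WT insulin-led barcodes with Camk2b. Shares were higher in other groups, for Camk2b 38.6% (WT) and 40.8% (GKO) of acinar-marker barcodes, for Atp2a3 20.8% and 28.9% of the B cell group and 20.0% of WT acinar-marker barcodes, and for Itpr1 44.3% and 55.3% of acinar-marker barcodes. If every insulin UMI found in another class had brought the insulin-led amount of each gene with it, that would make at most 5.06% of the UMIs of any member in any other class. Several neighbouring classes given above differed by less than that, among them insulin-led and somatostatin-led barcodes for Calm3 in WT (1.03-fold) and for Camk2n1 in GKO (1.01-fold), and no order is read between them. RNA brought from other classes, or into insulin-led barcodes, was not estimated, so 5.06% is no limit on all free RNA.

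Within the insulin-led class the levels were also read along the share of insulin, the quantity that defines the class. Barcodes were split at 25% and 60% insulin UMIs, which gave 53 WT and 37 GKO barcodes below 25%, 942 and 388 from 25 to 60%, and 1270 and 447 above 60%. Levels are again in CPM outside the hormones, so the insulin UMIs themselves did not enter them. Atp2a2 stood at 339, 738 and 1023 CPM from the lowest to the highest share in WT and at 376, 745 and 1063 CPM in GKO. Atp2a3 stood at 90.9, 180 and 307 CPM in WT and at 94.6, 169 and 276 CPM in GKO. Both pump genes were thus higher at each step, and the level above 60% was 1.38-fold that of 25 to 60% for Atp2a2 and 1.70-fold for Atp2a3 in WT.

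Itpr1 and Calm2 went the other way. Itpr1 stood at 126, 109 and 43.1 CPM in WT and at 169, 129 and 35.1 CPM in GKO, so that the level above 60% was 0.395-fold that of 25 to 60% in WT and 0.272-fold in GKO. Calm2 stood at 510, 458 and 320 CPM in WT and at 493, 445 and 305 CPM in GKO. Calm3, Camk2b and Camk2n1 moved less between the upper 2 ranges, with log2 differences of −0.30 to −0.04 over both libraries. From the lowest range to 25 to 60%, however, Camk2n1 was higher by 0.53 (0.37 to 0.68) in WT and 0.31 (0.15 to 0.48) in GKO. Barcodes above 60% had a higher median of all UMIs, at 40197 in WT against 31976 from 25 to 60%. Those totals include the insulin UMIs, so they do not give the depth outside the hormones, on which the levels rest. The part of depth in these differences was not tested. Leaving out barcodes with a second hormone at 10% or more, a choice made after seeing the data, gave 122, 110 and 43.1 CPM for Itpr1 in WT and 145, 130 and 35.1 CPM in GKO. In WT it gave 321, 753 and 1023 CPM for Atp2a2, 83.0, 183 and 307 CPM for Atp2a3, and 526, 455 and 320 CPM for Calm2. Barcodes with 3 markers of a nonendocrine list, 1087 of 2265 WT and 321 of 872 GKO insulin-led ones, stayed in. The part of RNA from other cells in these differences was not tested.

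**Figure D2:**
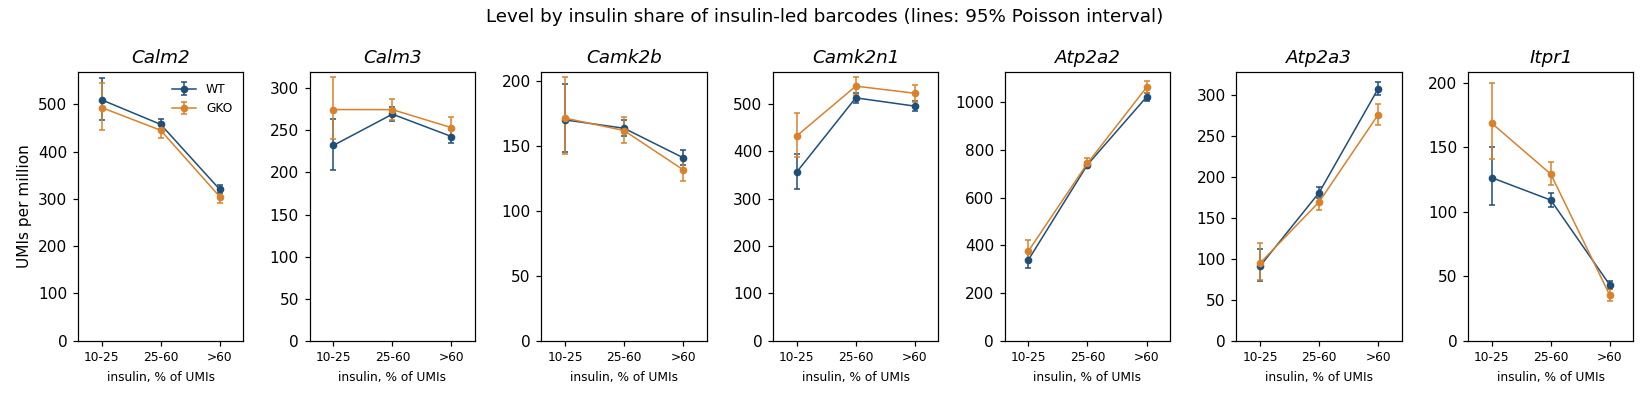
Level in CPM against the insulin share of the UMIs of insulin-led barcodes, for the 7 genes with enough UMIs, in WT (blue) and GKO (orange), with exact Poisson 95% intervals. Atp2a2 and Atp2a3 climb with insulin share, and Itpr1 and Calm2 fall. The WT and GKO lines lie close together for most genes, but those of Itpr1 cross.

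The pattern over the 10 sums (5 classes in 2 libraries) was compared between genes on the log2(CPM + 1) scale, as a description, since the sums share libraries and the classes are few. Atp2a2 and Atp2a3 had a Pearson r of 0.963 with each other, while Atp2a2 and Itpr1 had an r of −0.05 and Calm2 and Calm3 an r of 0.09. Among 13466 genes the closest to Atp2a2 was Aqp4 (r = 0.993), followed by Prkcsh and Rpn1, and the closest to Atp2a3 was Cdhr1 (r = 0.992). The closest to Camk2b was Cplx2 (r = 0.999), which encodes complexin 2, a protein of the exocytosis machinery. Ankrd6 was closest to Itpr1 (r = 0.991), Pcdh9 to Calm2 (r = 0.974), Slc25a12 to Calm3 (r = 0.981) and Setd3 to Camk2n1 (r = 0.990).

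Barcodes with no leading hormone were divided by nonendocrine markers, a barcode belonging to a group when at least 3 markers of that list and of no other had a UMI. Camk2b was near the floor in endothelial (8.44 CPM in WT and 8.66 CPM in GKO) and stellate (10.1 and 8.56 CPM) barcodes, yet it reached 88.8 and 110 CPM in acinar-marker barcodes and 141 and 113 CPM in barcodes of no list. Acinar markers were also found in hormone-led barcodes, at a summed 969 CPM in WT and 196 CPM in GKO insulin-led ones. Whether barcodes of no list, or some of the acinar-marker group, were endocrine cells with a hormone under 10% was not tested. Atp2a3 was 4.22 and 7.01 CPM in endothelial barcodes, but 50.8 and 45.6 CPM in the B cell group, from 32 UMIs over 26 WT barcodes and 23 UMIs over 42 GKO barcodes. Camk2n1 was nearly missing from that group, with 1 UMI in WT and 6 in GKO, and was highest among marker groups in ductal barcodes, at 331 and 340 CPM. Ryr2 had 4 UMIs in stellate barcodes of WT and 8 in those of GKO, which is 1.62 CPM (0.442 to 4.16) and 1.40 CPM (0.603 to 2.75). Of the other Ryr2 UMIs with no leading hormone, 4 in WT were in barcodes with markers of several lists and 1 in acinar-marker barcodes, and 3 in GKO were in barcodes of no list. Calm2 stayed between 240 and 696 CPM in all 6 marker groups of both libraries.

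**Figure D3:**
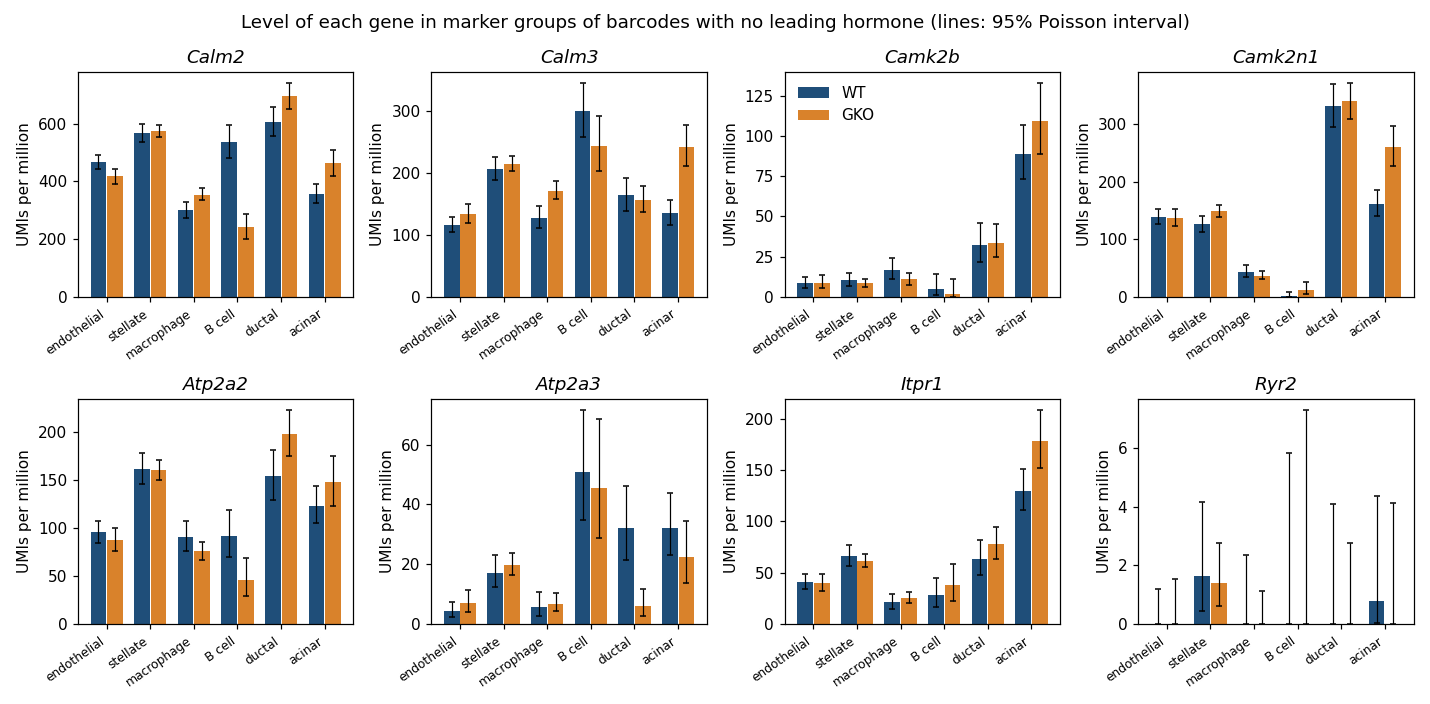
Level in CPM in 6 marker groups of barcodes with no leading hormone, WT (blue) and GKO (orange), with exact Poisson 95% intervals. Camk2b and Itpr1 are highest in acinar-marker barcodes, Atp2a3 in B cell barcodes and Camk2n1 in ductal barcodes, and of these 6 groups Ryr2 has most UMIs in stellate barcodes, 4 in WT and 8 in GKO.

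The comparison between genotypes asks whether loss of ghrelin goes with another level of these genes in barcodes of the same class. The paper cautions that its β cell data come only from cells that survived sorting, and proposes that GKO β cells may be more fragile. Insulin-led barcodes numbered 2265 in WT and 872 in GKO, and genotype and survival of cells cannot be told apart in their ratios. A gene was taken as past the fold when its log2 GKO to WT ratio was at least 0.3 or at most −0.3, among genes with at least 20 UMIs in each library and 100 in both. In insulin-led barcodes none of the 7 measured members was past the fold, where 7.11% of 11855 genes were higher and 7.85% lower. With the hormones in the total those shares were 11.9% and 5.44%, and still no member passed. The pumps of insulin-led barcodes gave log2 ratios of 0.00 (−0.03 to 0.03) for Atp2a2 and −0.18 (−0.24 to −0.11) for Atp2a3. Itpr1 gave 0.20 (0.10 to 0.30), and Calm2, Calm3, Camk2b and Camk2n1 lay between −0.04 and 0.07. Over 11 alternative settings the Atp2a2 ratio ranged from −0.10 to 0.08 and kept its sign in 6. It was lowest when barcodes with 3 markers of a nonendocrine list were left out, which were 1087 of 2265 WT and 321 of 872 GKO insulin-led barcodes.

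The Itpr1 ratio of insulin-led barcodes was not the same over the range of insulin share. It was 0.42 (0.05 to 0.78) from 10 to 25% insulin, in 53 WT and 37 GKO barcodes. Without barcodes with a second hormone at 10% or more, that value was 0.24 (−0.20 to 0.69). With all insulin-led barcodes the ratio was 0.24 (0.12 to 0.37) from 25 to 60% and −0.30 (−0.52 to −0.08) above 60%, from 820 and 220 GKO UMIs. The differences between the ranges were not tested. The range above 60% made 56.1% of WT and 51.3% of GKO insulin-led barcodes. Atp2a3 gave −0.16 (−0.24 to −0.08) above 60%, and from 25 to 60% its ratio of −0.09 (−0.20 to 0.01) was not below 0 beyond counting error.

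In glucagon-led barcodes Camk2n1 was the 1 member past the fold, higher in GKO by a log2 ratio of 0.35 (0.28 to 0.42), from 2860 UMIs in WT and 4693 in GKO. Its thinned share of barcodes was 73.4% in WT and 79.8% in GKO. Of 10658 genes 10.4% were higher and 6.31% lower in that class, so 1 of 7 members is near the background, and under TMM scaling the shares became 7.68% and 8.25%. The ratio was 0.30 when the leading hormone had to reach 25% and when barcodes with 3 markers of a nonendocrine list were left out, just under the fold in both cases. Median mitochondrial UMIs of glucagon-led barcodes were 4.20% in WT and 4.62% in GKO. Itpr1 gave 0.13 (0.06 to 0.19) there, and the other 5 measured members lay between −0.05 and 0.01.

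No member was past the fold in somatostatin-led barcodes, where 7.75% of genes were higher and 7.46% lower (6.08% and 9.23% under TMM scaling), nor in pancreatic polypeptide-led barcodes, where 8.3% were higher and 6.16% lower (6.61% and 8.04%). Camk2n1 gave 0.25 (0.19 to 0.30) and 0.22 (0.14 to 0.29) in these classes, which with the glucagon-led value made it higher in GKO in all 4 hormone-led classes, the smallest being 0.07 (0.03 to 0.11) in insulin-led barcodes. Those 4 ratios were above 0 in all 11 alternatives that gave one. Of all genes, 52.8% in insulin-led, 62.1% in glucagon-led, 55.8% in somatostatin-led and 58.2% in pancreatic polypeptide-led barcodes had a ratio above 0. The 4 classes came from the same libraries and do not replicate each other. In somatostatin-led and pancreatic polypeptide-led barcodes Atp2a3 gave −0.22 (−0.38 to −0.06) and −0.27 (−0.50 to −0.04), and Atp2a2 gave −0.11 (−0.19 to −0.03) and −0.23 (−0.33 to −0.13). When the leading hormone had to reach 25%, which left 106 WT and 90 GKO somatostatin-led barcodes, the Atp2a3 ratio of that class turned to 0.11.

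In barcodes with no leading hormone 2 members were lower in GKO, Camk2b by a log2 ratio of −0.42 (−0.60 to −0.24) and Atp2a3 by −0.30 (−0.52 to −0.08), where 17.4% of 12768 genes were higher and 14.7% lower. The makeup of this class differed between the libraries. Stellate barcodes made 19.4% of it in WT and 32.7% in GKO, endothelial barcodes 22% and 12.8%, and macrophage barcodes 8.21% and 13.1%. The summed level of the 6 acinar markers was 14474 CPM (WT) and 2215 CPM (GKO), that of the 8 stellate markers 8168 and 12670 CPM, and that of the 7 macrophage markers 2989 and 5440 CPM, with no marker of these lists at 0. Within groups the Camk2b ratio was 0.04 (−0.87 to 0.92) in endothelial, −0.25 (−0.97 to 0.51) in stellate, −0.62 (−1.40 to 0.17) in macrophage, 0.07 (−0.63 to 0.80) in ductal and 0.30 (−0.10 to 0.71) in acinar-marker barcodes. It was −0.40 (−0.91 to 0.11) in barcodes of several lists and −0.31 (−0.59 to −0.04) in those of no list. The Atp2a3 ratio was 0.21 (−0.31 to 0.76) in stellate, −0.15 (−0.99 to 0.66) in B cell and −0.53 (−1.38 to 0.28) in acinar-marker barcodes, −0.47 (−0.98 to 0.03) in those of several lists and −0.17 (−0.60 to 0.25) in those of no list. Of these intervals that of Camk2b in barcodes of no list lay below 0 and the others included it. The other groups had too few UMIs for a ratio, and among them ductal-marker barcodes had 29 Atp2a3 UMIs in WT and 8 in GKO, 32.1 CPM (21.5 to 46.1) and 6.00 CPM (2.59 to 11.8). Genotype and makeup cannot be told apart for these 2 genes, nor for other ratios of this class.

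**Figure D4:**
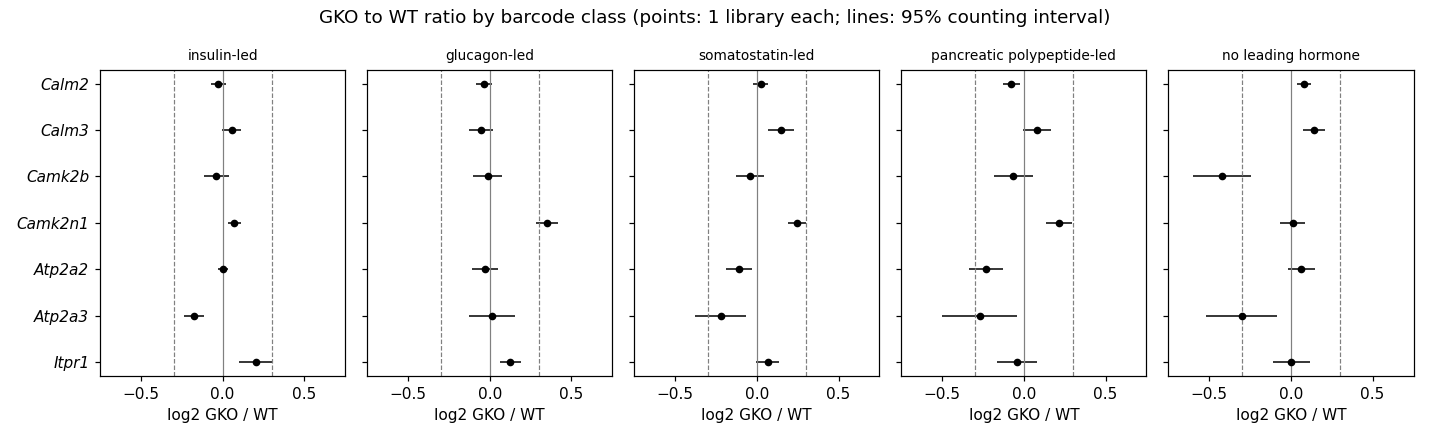
Log2 ratio of the GKO to the WT level for the 7 genes with enough UMIs in the 5 barcode classes, 1 library per genotype, with 95% counting intervals and dashed lines at a log2 ratio of 0.3 in either direction. Camk2n1 in glucagon-led barcodes lies above the upper line, and Camk2b and Atp2a3 in barcodes with no leading hormone lie below or on the lower one.

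The 8 genes were set beside 65 calcium-handling genes, the 8 among them. Of these, 47 could be measured in insulin-led barcodes, where 7 were higher and 3 lower, or 14.9% and 6.38% against 7.11% and 7.85% of all genes, with a median log2 ratio of 0.06 against 0.01 over all genes. In glucagon-led barcodes 7 of 44 were higher and 0 lower, or 15.9% and 0% against 10.4% and 6.31% (median 0.08 against 0.05). In somatostatin-led barcodes 4 of 47 were higher and 1 lower, or 8.51% and 2.13% against 7.75% and 7.46% (0.07 against 0.02), and in pancreatic polypeptide-led barcodes 5 of 44 and 0, or 11.4% and 0% against 8.3% and 6.16% (0.05 against 0.04). With no leading hormone 12 of 54 were higher and 5 lower, or 22.2% and 9.26% against 17.4% and 14.7% (0.08 against 0.00). The differing makeup of that class, given above, cannot be told apart from genotype in these counts. Most genes of the list, 37 of 47 in insulin-led barcodes, were within the fold.

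Genes higher in GKO in several classes were Camk2g and Mcub (each in 4 of 5) and Camk1d and Orai2 (each in 3 of the 4 measured). The share of all genes that did so was not counted, and the classes share the same libraries, so they do not replicate each other. Camk2g encodes the γ chain of the same kinase as Camk2b, and its level was 9.91 CPM (WT) and 12.2 CPM (GKO) in insulin-led barcodes, a log2 ratio of 0.30 (0.03 to 0.58), but its intervals in glucagon-led and pancreatic polypeptide-led barcodes included 0. Mcub encodes a subunit that dampens the mitochondrial calcium uniporter, and it gave 0.39 (0.17 to 0.61) in glucagon-led and 0.51 (0.25 to 0.78) in somatostatin-led barcodes but −0.04 (−0.33 to 0.25) in pancreatic polypeptide-led ones. Camk1d, a calmodulin-dependent kinase gene, gave 0.87 (0.65 to 1.10) with no leading hormone, and its intervals in hormone-led classes included 0. Orai2 encodes a store-operated calcium channel and gave 0.41 (0.10 to 0.71) in insulin-led barcodes and 0.57 (0.19 to 0.95) with no leading hormone. Its somatostatin-led ratio of 0.34 (−0.19 to 0.87) had an interval that included 0, and its glucagon-led ratio was −0.29 (−0.84 to 0.25). For the ratios with no leading hormone, genotype and makeup of the class cannot be told apart.

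The highest ratios of the list in insulin-led barcodes were those of Slc8a1, the sodium-calcium exchanger (10.4 CPM in WT and 14.9 CPM in GKO, log2 ratio 0.51, 0.25 to 0.76), Camk1d (0.45, −0.01 to 0.89) and Orai1 (0.44, 0.14 to 0.73). The lowest were those of Itpr3, the type 3 inositol trisphosphate receptor (32.7 and 24.9 CPM, −0.39, −0.57 to −0.21), Stim2, a calcium sensor of the endoplasmic reticulum (−0.39, −0.58 to −0.20), and Ppp3r1, the calcineurin regulatory subunit (78.03 and 60.04 CPM, −0.38, −0.49 to −0.26). All of these except Ppp3r1 were low-level genes, whose intervals are wider than those of the members.

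Besides the pumps, the list genes Camkk2, Itpr2 and Fkbp1b were higher in insulin-led than in every other hormone-led class. Their log2 difference was at least 1 in both libraries, as was that of Pcp4 and Slc8a2 in somatostatin-led barcodes. That made 5 of 48 measured list genes, the pumps included, for insulin-led and 2 of 48 for somatostatin-led barcodes, against 2.95% and 2.9% of all genes. With the hormones in the total neither pump passed, and the other list genes were not read on that scale. Fkbp1b, which encodes a protein bound to ryanodine receptors, was at 183 CPM in WT and 176 CPM in GKO insulin-led barcodes against 4.71 and 2.83 CPM in glucagon-led ones, in the same barcodes that held no Ryr2 UMI. Pcp4, which encodes a calmodulin-binding peptide, was at 159 and 179 CPM in somatostatin-led barcodes, the class with the highest Calm2, against 17.9 and 19.9 CPM in insulin-led ones. Itpr2 was at 17.6 and 16.2 CPM in insulin-led barcodes and 2.4 and 2.31 CPM in glucagon-led ones, the reverse of the order of Itpr1.

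**Figure D5:**
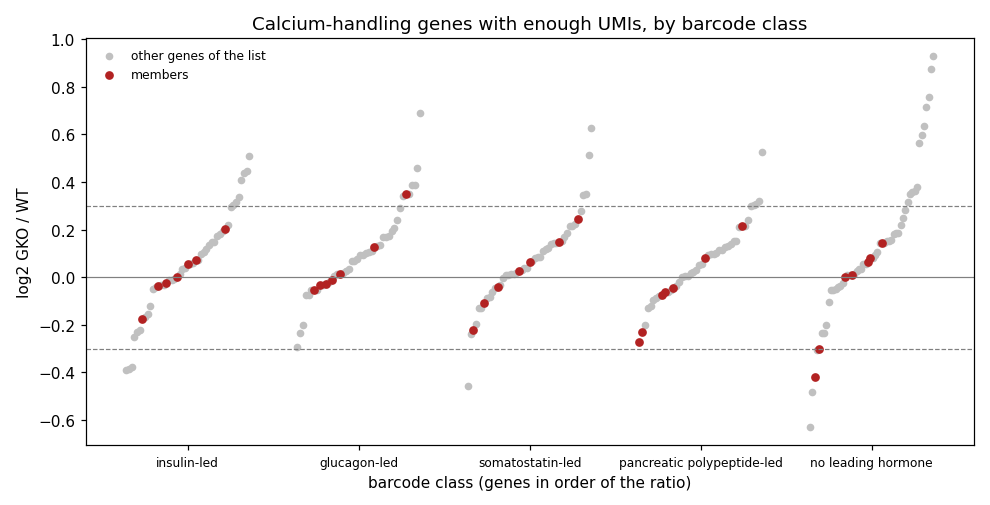
Log2 ratio of the GKO to the WT level of each measured gene of the calcium-handling list, ordered by ratio within each of the 5 barcode classes, with dashed lines at 0.3 in either direction. Red points are the members and grey points the other genes of the list. Most members lie within the lines, but Atp2a3 has the lowest ratio of the list in pancreatic polypeptide-led barcodes. In insulin-led barcodes 37 of 47 genes lie within the lines.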

How the data were processed

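Libraries were made with the Chromium Single Cell 3′ v3.1 chemistry, and the authors ran Cell Ranger 5.0.1 with mm10 to obtain a UMI count for each gene in each barcode. The deposited values are UMI counts of the barcodes called as cells, without scaling and without removal of free RNA, which the study did later with CellBender. Its clusters, cell names and doublet calls were not used here, no doublet caller was run, and barcodes with signs of several cells were left out as alternatives. Barcodes, classes, CPM and the fold of 0.3 are as described above. Intervals are exact Poisson intervals for counts, exact conditional intervals for ratios of 2 counts, and Clopper-Pearson intervals for shares, all at 95% and computed with scipy 1.17.1 and checked on simulated counts. TMM factors came from edgeR 4.0.16, on the summed counts, with no test.

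The genes, the calcium-handling list, the markers and the rules were chosen with earlier results of these data known. Genes of the list were named when past the fold in 1 direction in at least 3 of 5 classes, or among the 3 highest or 3 lowest ratios in insulin-led barcodes, and the genes nearest in pattern by Pearson r among genes with at least 100 UMIs in each library. The enriched list genes named, and those of marker groups, were chosen after their values were seen. Of the list, 3 genes were matched by an older symbol. Gene positions are those of GENCODE vM21 (GRCm38).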

Additional observations from a re-analysis of the deposited data

Results flagged for a closer look

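Calm2 moved in opposite directions in 2 classes, with a log2 GKO to WT ratio of 0.079 (0.037 to 0.121) in barcodes with no leading hormone and −0.076 (−0.129 to −0.024) in pancreatic polypeptide-led barcodes. The difference between the classes was not tested, since each genotype had 1 library, and both values lie well within the fold. In barcodes with no leading hormone, genotype and makeup cannot be told apart for Calm2 either. Over the 11 alternatives the first ranged from −0.04, with the leading hormone at 25%, to 0.16 with no barcode filter, and it was 0.00 to 2 decimals without the deepest 5% of barcodes and with equal weight of barcodes. The second ranged from −0.12 to −0.05.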

How the results depend on the processing

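None of the 3 member ratios past the fold turned its sign over the 11 alternatives that gave a ratio; for the calcium-handling list only counts were recomputed. Members past the fold in glucagon-led barcodes numbered 1 and became 0 with the leading hormone at 25%, without hormone-led barcodes with 3 nonendocrine markers and at a fold of 0.5. In somatostatin-led barcodes 0 became 1 at 25% (Camk2n1, 0.34), and in pancreatic polypeptide-led barcodes 0 became 1 at 5% mitochondrial UMIs, with TMM scaling and with equal weight of barcodes (Atp2a3, −0.31 in each), while that ratio was −0.01 with the leading hormone at 25% and −0.06 without barcodes with 3 nonendocrine markers. Genes lower in pancreatic polypeptide-led barcodes made 6.53% at 5% mitochondrial UMIs, 8.04% with TMM and 7.58% with equal weight. Without hormone-led barcodes with 3 nonendocrine markers, 10.7% of genes were higher and 7.06% lower in glucagon-led barcodes. With no leading hormone 2 became 1 with no barcode filter, with all UMIs in the total, with TMM and with equal weight, and 0 at a fold of 0.5. Genes lower in that class made 13.1% with no barcode filter, 14.4% with all UMIs, 14.0% with TMM and 19.7% with equal weight. Counts of the calcium-handling list changed most at a fold of 0.5, to 1 in insulin-led (from 10), 1 in glucagon-led (from 7), 2 in somatostatin-led (from 5), 1 in pancreatic polypeptide-led (from 5) and 8 in no-leading-hormone barcodes (from 17). At 25% they were 4 in glucagon-led, 2 in somatostatin-led and 3 in pancreatic polypeptide-led barcodes. The last count was also 3 without barcodes with 3 nonendocrine markers and 2 with TMM or without ribosomal protein and mitochondrial genes. Camk2n1 in glucagon-led barcodes ranged from 0.30 to 0.35, Itpr1 in insulin-led barcodes from 0.10 to 0.28, Camk2b with no leading hormone from −0.70 to −0.31 and Atp2a3 there from −0.62 to −0.15. The causes were not tested. No paired analysis was possible because each genotype had 1 library.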

Other observations

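Small marker groups held the widest differences of these genes between the libraries. The Atp2a3 UMIs of ductal-marker barcodes came from 49 WT and 81 GKO barcodes. In the B cell group Calm2 was at 536 CPM in WT and 240 CPM in GKO, a log2 ratio of −1.16 (−1.47 to −0.86), from 26 and 42 barcodes with median depths of 19711 and 11220 UMIs. Atp2a2 was also lower there (−1.01, −1.78 to −0.29). The intervals of Calm3 (−0.30, −0.64 to 0.04) and Atp2a3 (−0.15, −0.99 to 0.66) in that group included 0. Exactly 3 B cell markers were found in 6 of the WT and 15 of the GKO barcodes, so genotype and makeup cannot be told apart there. In acinar-marker barcodes Calm3 (0.85, 0.56 to 1.15), Camk2n1 (0.69, 0.42 to 0.97), Itpr1 (0.46, 0.14 to 0.79) and Calm2 (0.38, 0.18 to 0.57) were higher in GKO, from 87 and 93 barcodes. The intervals of Camk2b (0.30, −0.10 to 0.71), Atp2a2 (0.26, −0.09 to 0.60) and Atp2a3 (−0.53, −1.38 to 0.28) included 0 there. Exactly 3 acinar markers were found in 20 of the WT and 35 of the GKO barcodes, and genotype and makeup cannot be told apart in this group. These groups were picked after their values were seen. Shares of all genes past the fold were not counted in them, so these ratios are not read as particular to these genes.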
